A study of Arabidopsis thaliana with 2 samples.

Results

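Anthocyanins are the red and purple pigments of the flavonoid pathway. Their coloured core is built by a chain of enzymes shared at first with the flavonols. DFR, dihydroflavonol reductase, is the step that turns the chain from the flavonols towards anthocyanins and, by a further branch, proanthocyanidins. Decoration enzymes then add sugars and acyl groups to the core, which makes the pigment stable enough to be stored in the vacuole. In Arabidopsis rosettes the late and decorating genes are switched on together by MYB and bHLH transcription factors that act in a shared complex, while the early steps and the flavonol branch answer to other MYB factors. The genes examined here belong to this late part: DFR (AT5G42800), UF3GT (AT5G54060), AT4G14090 and AT5MAT (AT3G29590). They were chosen by symbol or locus in the array's probe-to-gene annotation and are 4 of 13355 genes that have a probe set annotated to exactly 1 gene.

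Shoot RNA of the Col-0 ecotype of Arabidopsis thaliana was measured on 2 ATH1 GeneChips of Affymetrix. The treated array carried RNA of plants raised on agar that contained NPA, N-(1-naphthyl)phthalamic acid, which blocks the polar transport of auxin, dissolved in DMSO. The control array carried RNA of plants raised on agar with an equal volume of DMSO alone. Both groups were stratified for at least 2 days, grown at about 20 C with 16 h of light and cut at about 2 weeks with about 6 rosette leaves, at developmental stage 1.04. The NPA dose was given as 10 uM in the notes on the treated sample but as 10 mM in the growth protocol. Each group had 1 array, so no difference below has a replicate check, no test was run, and precision is limited by that number. The labels do not say how many plants went into an RNA sample.

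The deposited values are linear signals that had been scaled to a common trimmed mean before deposit. The median signal was 44.5 on the NPA array and 43.3 on the DMSO array. Signals up to an array's 40th percentile, 27.9 with NPA and 28.3 with DMSO, were treated as a floor, and a gene was called measured when at least 1 array lay above it. Of 7 leaf genes on the marker list 5 had a named probe set (LHCB4.1, LHCB4.2, RCA, PRK and SBPASE), and these were bright on both arrays, from 2147 to 5105 with NPA and from 3671 to 5597 with DMSO. Their summed signal was 18373 with NPA and 23077 with DMSO, with 5 of 5 lower with NPA as deposited. After lowess centring 3 of the 5 had positive log2 ratios, and after quantile normalization 2 of 5. The part of these genes in the values below was not tested. The root hair gene EXPA7 lay below both floors, at 16.9 with NPA and 19.2 with DMSO, EXPA18 was close to them at 28.3 with NPA and 36.8 with DMSO, and the root-abundant beta-glucosidase gene PYK10 had 425 with NPA and 609 with DMSO. BAN, which opens the proanthocyanidin branch of the seed coat, was at 1.05 with NPA and 0.974 with DMSO, far below both floors. In RNA from whole shoots, a larger share of pigmented cells and more transcript per cell cannot be told apart.

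All 4 genes had higher signals with NPA. Taking each signal below the floor as the floor, 4 of 4 were at least 2-fold higher, and 3 of 4 were at least 4-fold higher. Over the 7752 measured genes, 3.75% passed 2-fold and 0.529% passed 4-fold in the higher direction, while 2.13% passed 2-fold in the lower one. Because the genes were picked with earlier results of these arrays known, the count is a description and is not evidence from an independent choice.

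**Figure D1:**
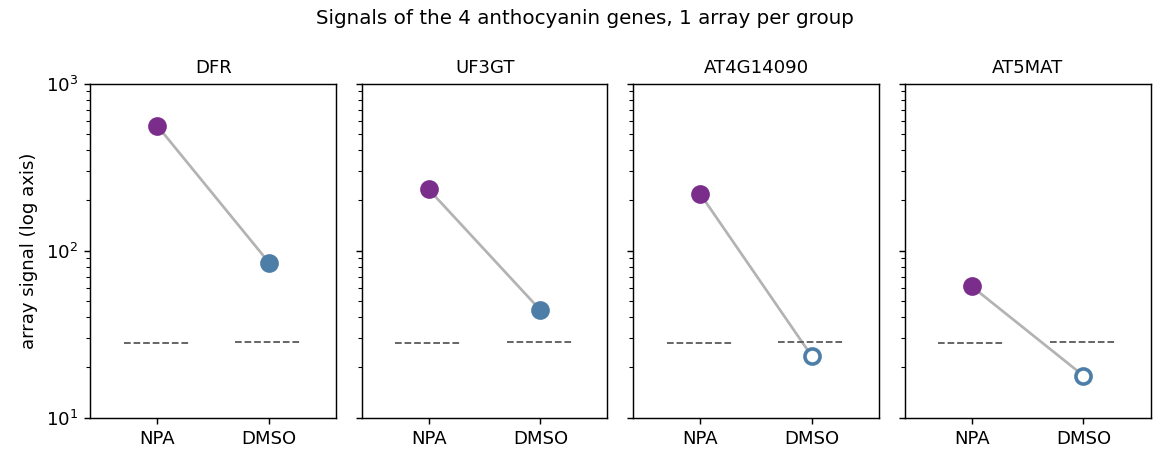
Array signal (log axis) of the 4 genes with NPA and with DMSO, 1 array each. Dashed marks are the floors, 27.9 with NPA and 28.3 with DMSO, and an open point lies below its floor. Every gene is higher with NPA, and AT4G14090 and AT5MAT lie under the floor on the DMSO array.

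DFR reduces colourless dihydroflavonols to the leucoanthocyanidins that become anthocyanidins. Its signal was 559 with NPA and 84.8 with DMSO, above the floor on both arrays. The difference was 6.59-fold, a log2 ratio of 2.72, and was the 11th highest ratio of the 7752 measured genes. Among the 500 genes nearest to DFR in mean signal, taken from genes above both floors, the log2 ratios had an SD of 0.60. DFR itself was among the 500, and it was 1 of the 2 genes counted as having a ratio as high. That SD is the spread among genes on this pair of arrays and not an error of the measurement.

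UF3GT, also written UGT79B1, encodes a glycosyltransferase of the UDP-sugar family that extends the sugar chain of the anthocyanin. It had a signal of 232 with NPA and 44.0 with DMSO, again above the floor on both arrays. The difference was 5.28-fold, a log2 ratio of 2.40, and ranked 22nd. Of the 500 genes nearest in mean signal, 6 had a ratio as high, against 28 that were at least 2-fold higher. UF3GT itself is counted in the 500, the 6 and the 28.

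AT4G14090 carries only its locus in the gene table. It stands here among the decoration genes as UGT75C1, the glucosyltransferase that puts a separate glucose on the anthocyanin core, from a pathway list written by locus. It had a signal of 218 with NPA and 23.2 with DMSO, where the floor was 28.3. It was therefore at least 7.71-fold higher with NPA, a log2 ratio of at least 2.95. The bound ranked 8th of the measured genes. Of the 500 genes nearest in mean signal, 0 had a ratio as high, but those 500 were taken only from genes above both floors. At this mean signal a ratio as high needs a DMSO signal about at the floor. That 0 was thus largely set by the choice of genes, and nothing is drawn from it. Without a floor the deposited signals differed 9.38-fold.

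AT5MAT encodes the malonyltransferase that acts on the glucose added in the step before and so works late in the decoration of the Arabidopsis pigment. Its signal was 61.1 with NPA and 17.8 with DMSO, below the floor with DMSO. It was at least 2.16-fold higher with NPA, a log2 ratio of at least 1.11, and the bound ranked 238th. Its call rests on where the floor lies. A floor at the 55th percentile gave a bound of 1.15-fold, and adding the floor to both signals gave 1.93-fold, both under 2-fold, whereas the deposited signals without a floor differed 3.43-fold.

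**Figure D2:**
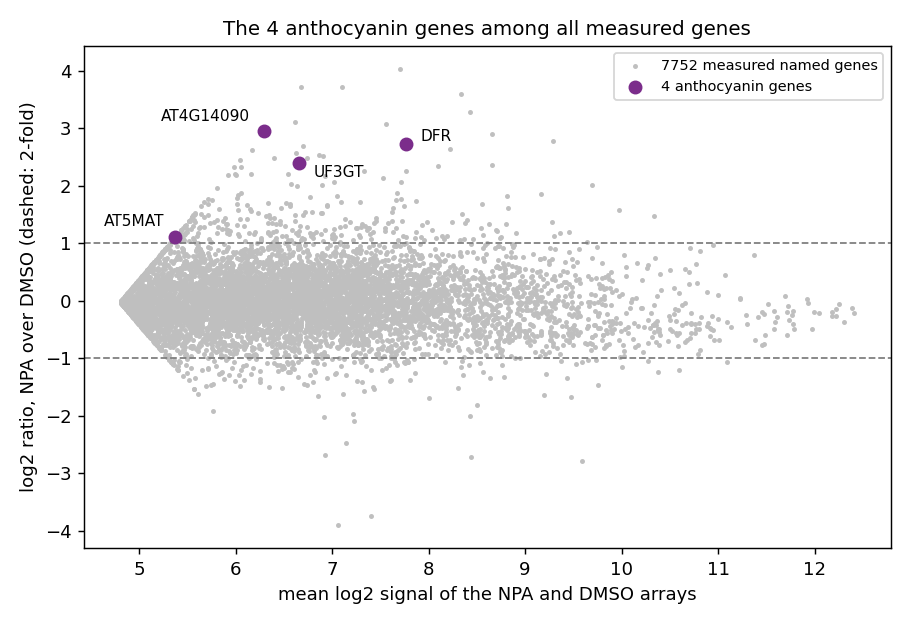
Log2 ratio of NPA over DMSO against mean log2 signal for the 7752 measured genes, with signals below the floor set to it, and the 4 anthocyanin genes in colour. Dashed lines mark 2-fold. DFR, UF3GT and AT4G14090 lie at log2 ratios of 2.72, 2.40 and at least 2.95, and AT5MAT lies on the edge set by the floor at 1.11.

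The other genes of the pathway with a probe set of their own stayed within 2-fold where they were measured. Beside the 4 genes, the list holds 53 loci of the phenylpropanoid entry, the flavonoid and flavonol enzymes, decoration, transport and regulation, of which 6 had a named probe set and 4 were measured. None of these (0 of 4) passed 2-fold in either direction, and their median log2 ratio was -0.35, against -0.03 over all measured genes. Only 3.75% of all measured genes passed 2-fold higher and 2.13% lower, so 0 of 4 does not set these genes apart from the rest. The remaining loci, with the MYB and bHLH activators and most early enzymes among them, were not analysed here.

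CHIL, a chalcone isomerase-like protein that helps the early enzymes, had a signal of 170 with NPA and 193 with DMSO, a log2 ratio of -0.18. UGT78D2 adds the first sugar to both anthocyanidins and flavonols. It had 157 with NPA and 155 with DMSO, a log2 ratio of 0.02 that was -0.04 after quantile normalization. The core sugar step shared by both branches thus had nearly equal signals on the 2 arrays. UGT78D2 was the only 1 measured of the 5 other decoration loci on the list. DFR, which acts before it, was 6.59-fold higher with NPA, so no order along the pathway is drawn from these values.

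Of 7 genes of the flavonol branch on the list, 3 were named and 2 measured, and both of these had negative log2 ratios short of 2-fold. UGT78D1, a flavonol rhamnosyltransferase, had a signal of 136 with NPA and 196 with DMSO, a log2 ratio of -0.52. AT1G06000, on the list as the flavonol rhamnosyltransferase UGT89C1, had 181 with NPA and 346 with DMSO, 1.91-fold lower with NPA and short of 2-fold. Its log2 ratio was -0.93. UGT78D3, a flavonol arabinosyltransferase, was below the floor on both arrays, at 1.22 with NPA and 4.90 with DMSO, and is given no fold.

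One further probe set is annotated to 2 genes, both of them on the decoration list, and can be credited to neither. Its signal was 249.7 with NPA and 43.7 with DMSO, 5.71-fold higher, a log2 ratio of 2.51. It lies between UF3GT and DFR in the size of its difference and was not counted with any list.

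**Figure D3:**
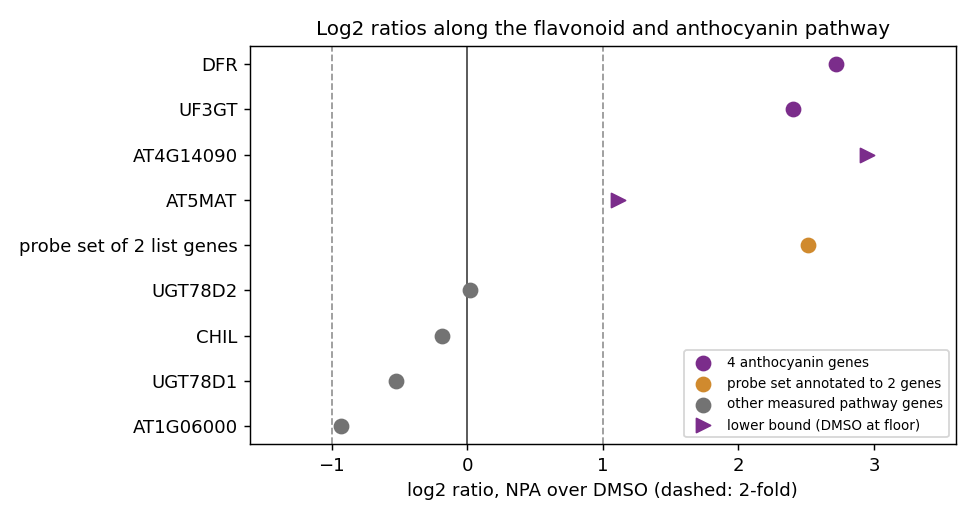
Log2 ratio of NPA over DMSO for the 4 anthocyanin genes, the probe set annotated to 2 decoration genes and the 4 other measured genes of the pathway list, 1 array per group. Triangles are lower bounds, with DMSO at the floor. The 4 genes and the shared probe set lie right of 2-fold, and the other 4 genes lie between -0.93 and 0.02.

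UF3GT and AT4G14090 belong to the UDP-glycosyltransferases, a large family that attaches sugars to hormones, defence compounds and pigments. Leaving both out, 51 genes named as such in the gene table's text were on the array, 26 of them at the floor on both arrays. Of the 25 measured, 0 passed 2-fold in the higher direction and 1 in the lower, beside 3.75% and 2.13% of all measured genes. Their log2 ratios were positive in 13 genes and negative in 12, with a median of 0.02. The highest of them was UGT72E1, which glucosylates lignin precursors, with 129 with NPA and 64.4 with DMSO, a 2.00-fold difference that fell just short of 2-fold before rounding and came to 2.03-fold after median centring. The lower one was UGT76C2, a cytokinin glucosyltransferase, at 29.6 with NPA and 61.8 with DMSO, a log2 ratio of -1.06 that came to -0.16 under a 55th-percentile floor. UGT76D1, which lay under the NPA floor, passed 2-fold in the lower direction under a 25th-percentile floor, under one at the highest unspiked control signal and without a floor, at log2 ratios of -1.24, -1.44 and -1.61. Without a floor, all 51 genes counted and 5 were then higher and 9 lower. UF3GT and AT4G14090 were picked with earlier results of these arrays known, so their place in the family is a description only. With the floor as used, they had higher ratios than each of the 25 other measured genes named as such in that text. The text does not find the whole family, since AT1G06000, given above as UGT89C1, is not among the 51.

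**Figure D4:**
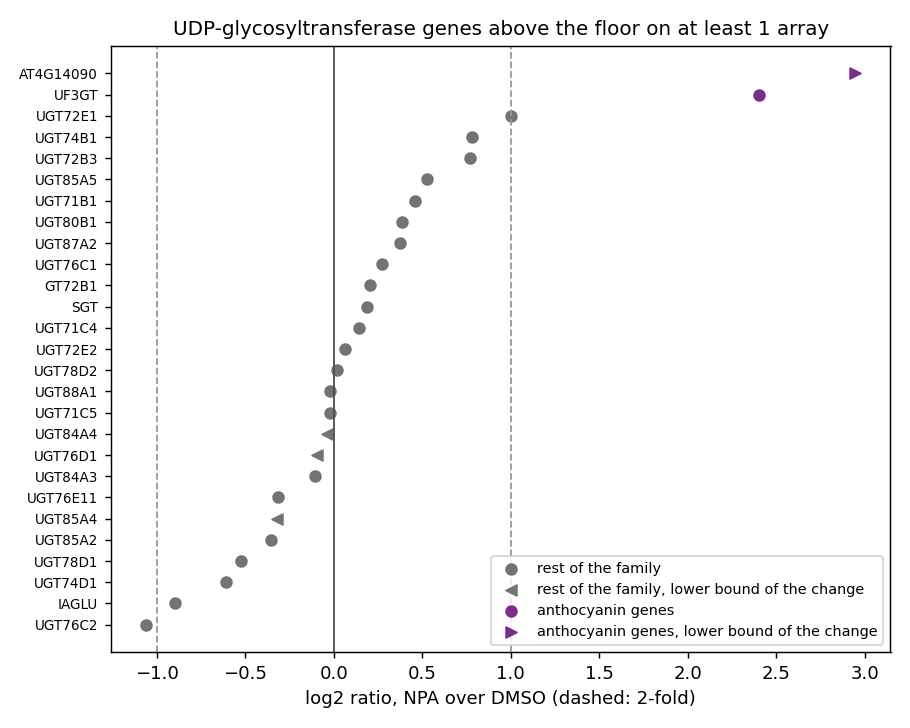
Log2 ratio of NPA over DMSO for UF3GT, AT4G14090 and the 25 other measured UDP-glycosyltransferase genes named as such in the gene table's text, in order of the ratio. Triangles are lower bounds of the change, with 1 array at the floor. UF3GT and AT4G14090 lie at 2.40 and at least 2.95, and the other 25 genes lie between -1.06 and 1.00.

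AT5MAT belongs to the BAHD acyltransferases and DFR to a family of short-chain reductases. Few relatives could be read, from lists of 13 and 5 loci chosen after the data were seen. Of 6 named BAHD genes 2 were measured. BAT1, linked to brassinosteroid inactivation, had a signal of 64.2 with NPA and 39.2 with DMSO, a log2 ratio of 0.71. HCT, of lignin precursor synthesis, had 1063 with NPA and 1481 with DMSO, a log2 ratio of -0.48. Of the DFR relatives, CCR2, a cinnamoyl-CoA reductase, had 30.5 with NPA and 4.82 with DMSO. It was at least 1.08-fold higher, a bound that reached 2.18-fold under a 25th-percentile floor. The deposited signals of CCR2 without a floor differed 6.34-fold.

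The 4 genes lie apart in the genome, their loci being numbered on chromosomes 3, 4 and 5. Of the 5 protein-coding genes on each side of each of them in the TAIR10.1 gene table, 40 in all, 5 were measured. Of these, 0 reached 2-fold in either direction, beside 3.75% of all measured genes higher and 2.13% lower. Their log2 ratios ran from -0.11 for AT4G14100, next to AT4G14090, to 0.40 for AAE15, an acyl-activating enzyme gene close by. AT3G29635, which lies near AT5MAT, was below the floor on both arrays, at 14.7 with NPA and 13.4 with DMSO. No neighbour of AT5MAT was measured.

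Likeness of pattern could be judged over 2 arrays only, as the distance between pairs of log2 signals. The 3 genes nearest to UF3GT were AT2G43570, AT1G27030 and AT4G30460, at distances of 0.04, 0.12 and 0.13. AT2G43570 bears the symbol CHI in the annotation and is listed there as a putative chitinase, not as the chalcone isomerase of the flavonoid pathway, and had 233 with NPA and 42.7 with DMSO. The 3 nearest to DFR were AT1G25530, AT4G33550 and AT4G14270, at larger distances of 0.33, 0.39 and 0.47. AT4G14090 and AT5MAT, at the floor with DMSO, were not compared in this way.

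**Figure D5:**
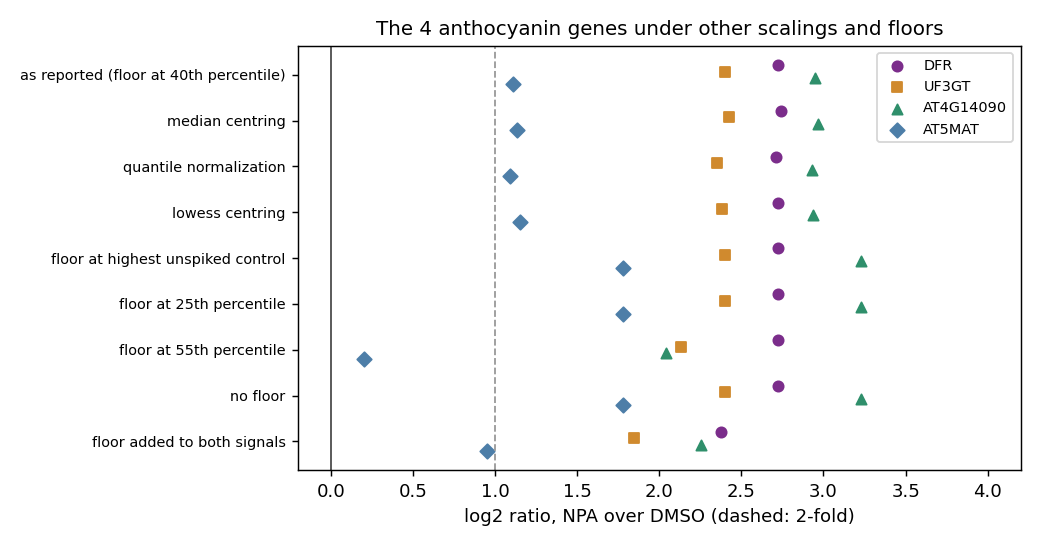
Log2 ratio of NPA over DMSO of the 4 genes as reported and under 8 other scalings and floors, with 2-fold dashed. DFR, UF3GT and AT4G14090 stay right of 2-fold in each, and AT5MAT lies left of it under a 55th-percentile floor and where the floor was added to both signals. Where an array is at the floor, the value is a lower bound.

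Each of the 4 genes has 1 probe set, so 2 of the 10 alternatives, those on the choice of probe set, could not move them. Across the other 8, the log2 ratio of DFR ran from 2.38 to 2.74, that of UF3GT from 1.85 to 2.42, that of AT4G14090 from 2.04 to 3.23 and that of AT5MAT from 0.20 to 1.78. A floor below both signals of a gene cannot move its ratio. DFR thus stayed at 2.72 under the 25th- and 55th-percentile floors, without a floor and under the highest unspiked control. UF3GT stayed at 2.40 in the same settings except under the 55th-percentile floor. The 3 other scalings moved none of the 4 by more than 0.05, and the wider moves came with other floors. For AT5MAT and AT4G14090, the DMSO array gives only an upper limit under the floor.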

How the data were processed

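Total RNA from 1 shoot sample per group was biotin-labelled and hybridised to ATH1 arrays, per the labels. The deposited table holds 1 linear signal intensity for each probe set. MAS5 and GCOS are the tools listed in the submitters' processing notes, with no version. Of 22746 probe sets other than the 64 controls, 13513 are annotated to 1 gene, 503 to several and 8730 to none here. Of the 13513, 13436 matched the TAIR10.1 gene table, which served for names and gene order. The array annotation names no build, so no coordinates are given. The brightest probe set stands for a gene, and each of the 4 genes has exactly 1.

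Signals were floored at the 40th percentile, and log2 ratios of NPA over DMSO were taken. With 1 array per group genes were called by size, at 2-fold. The 18 spike-in probe sets averaged a log2 ratio of -0.07 (SD 0.21 across probe sets). The 27 unspiked bacterial controls reached at most 10.9 with NPA and 15.7 with DMSO. The steps were run on simulated arrays, with noise set from that spike-in SD and changes planted only in genes with DMSO signals above 4 times the floor. The DMSO signals of the 4 genes lie below that limit, so the simulation does not cover them. Genes named are the 4, measured genes of the pathway list, family genes at 2-fold, the 3 genes nearest in pattern and measured markers; UGT72E1, UGT76D1, UGT78D3, AT3G29635, AT4G14100, AAE15, EXPA7, BAN, BAT1, HCT and CCR2 were added after their values were seen. The members and lists were chosen with earlier results of these data known. Planned searches of promoters and proteins were not run, because no sequences were used here. Tables were handled with pandas 2.3.3 and numpy 2.4.6 in Python 3.11.15, lowess came from statsmodels 0.14.6, ranks from scipy 1.17.1, and plots from matplotlib 3.10.9.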

Additional observations from a re-analysis of the deposited data

How the results depend on the processing

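No paired analysis was possible because each group has 1 array, and for the same reason no array could be left out. A gene's value was taken as stable when it moved by less than the SD of the log2 ratios of genes of like signal. A list's median was stable when it moved by less than the SD over all genes above both floors, 0.54, divided by the square root of the number of genes in the list, and a count when it stayed within 1.5 times. Of 122 values of the 4 genes, lists and counts under the alternatives, 101 were stable, 21 moved and 0 turned direction among called values. Of the 101, 10 were fixed, as each of the 4 genes has 1 probe set. More could not move, so 101 overstates stability. Under a 55th-percentile floor AT4G14090 had a log2 ratio of at least 2.04 and AT5MAT of at least 0.20, and the family median of the UDP-glycosyltransferases was 0.17. AT4G14090 had 2.25 where the floor was added to both signals. AT5MAT had 1.78 without a floor, under a 25th-percentile floor and under one at the highest unspiked control. The family median was -0.11 with the floor at the highest unspiked control, and it also lay just below 0 with no floor or a 25th-percentile one. Without a floor 1 gene of the pathway list, UGT78D3, was at least 2-fold lower. Over all genes, 1102 were at least 2-fold higher and 1340 lower without a floor, while adding the floor to both signals gave 174 higher and 71 lower. Lower genes numbered 297 under a 25th-percentile floor and 351 under one at the highest unspiked control. Calling at 1.5-fold gave 869 higher and 822 lower, at 3-fold 75 and 18, and at 4-fold 41 and 9, which follows from the rule itself. Moves under a changed floor follow from the floor where an array lies below it, and the cause of the others was not tested. The planned median for BAHD acyltransferases found by the gene table's text could not be had, because that text names none. Over the list by locus added later it was 0.12, from 2 genes.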
